A study of Mus musculus with 11 samples.

Results

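Blood vessel genes were followed in mammary glands carrying PN1a or PN1b lesions, using every probe set annotated to a single gene among 10 angiogenic factors and endothelial receptors. The genes were Vegfa, Kdr, Flt1, Flt4, Tek, Tie1, Angpt2, Pecam1, Eng and Madcam1. All 10 were represented, by 14 of the 12422 probe sets tested, among 8251 genes with a probe set of their own. Their probe sets were picked by the annotation of the array and no measured value. The genes themselves were chosen with earlier results of these data known. PN1a and PN1b are lines of p53-null Balb/c mammary epithelium that grow as hyperplasias. They came from opposite glands of a single mouse, and each was kept by serial transplantation into the cleared fat pads of wildtype Balb/c hosts. RNA came from whole glands 8 weeks after transplantation, 5 samples with PN1a and 6 with PN1b, and each was read on its own Affymetrix MG_U74Av2 array. The transplanted epithelium of both groups lacks p53, each group stands for 1 line, and a gland holds host fat, vessels and immune cells beside the lesion. Fewer vessel cells and less RNA per vessel cell therefore cannot be told apart. Values are intensities, a linear brightness without a unit that ran from 1 to 1938, and differences are log2 fold changes, PN1a minus PN1b. A call required a difference of 1.5-fold or more with an adjusted p below 0.05.

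New vessels grow when vascular endothelial growth factor A, the product of Vegfa, binds the receptor kinase VEGFR2 (Kdr) on endothelial cells. VEGFR1 (Flt1) binds the same ligand and often acts as a trap for it, and VEGFR3 (Flt4) serves lymphatic vessels. The Tie receptors form another system: angiopoietin 1 activates TIE2 (Tek) and keeps vessels quiet, angiopoietin 2 (Angpt2) opposes it in many settings, and TIE1 modulates it. CD31 (Pecam1) and endoglin (Eng) are surface proteins of endothelium, and MAdCAM-1 (Madcam1) is an addressin on venules that captures lymphocytes. CD31 also occurs on platelets and leukocytes, and TIE2 on a class of macrophages.

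The control regions of 5 genes are printed here because they stand for the patterns described below: Tek and, by 1 of 2 probe sets each, Tie1 and Flt1 were low in the same 2 PN1a samples, Vegfa was high in them, and Madcam1 differed between the lesions by 1 of its 2 probe sets. Each line holds the 250 bases before the annotated start, 5′ to 3′ on the strand of the gene (RefSeq, GRCm38.p6), and capitals mark GGAA or its reverse complement TTCC, the core that ETS transcription factors recognise. They lie at chr4:94739039-94739288 (plus strand), chr4:118489850-118490099 (minus strand), chr5:147726012-147726261 (minus strand), chr10:79664309-79664558 (plus strand) and chr17:46032378-46032627 (minus strand), in the order printed.
Tek: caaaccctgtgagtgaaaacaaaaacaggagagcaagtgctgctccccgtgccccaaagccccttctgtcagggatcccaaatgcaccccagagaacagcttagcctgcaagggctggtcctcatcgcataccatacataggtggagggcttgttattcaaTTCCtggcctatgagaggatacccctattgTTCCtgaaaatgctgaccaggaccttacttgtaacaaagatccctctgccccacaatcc
Tie1: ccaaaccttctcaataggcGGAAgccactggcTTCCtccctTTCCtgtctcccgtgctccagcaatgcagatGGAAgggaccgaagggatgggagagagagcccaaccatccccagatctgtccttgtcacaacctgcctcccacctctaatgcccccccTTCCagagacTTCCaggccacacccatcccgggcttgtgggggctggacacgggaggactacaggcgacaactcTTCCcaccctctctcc
Flt1: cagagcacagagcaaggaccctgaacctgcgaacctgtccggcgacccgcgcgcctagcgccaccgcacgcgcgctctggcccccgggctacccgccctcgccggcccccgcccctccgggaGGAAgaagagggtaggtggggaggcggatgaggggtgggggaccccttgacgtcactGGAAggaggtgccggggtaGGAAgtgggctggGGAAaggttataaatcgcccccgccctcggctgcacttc
Madcam1: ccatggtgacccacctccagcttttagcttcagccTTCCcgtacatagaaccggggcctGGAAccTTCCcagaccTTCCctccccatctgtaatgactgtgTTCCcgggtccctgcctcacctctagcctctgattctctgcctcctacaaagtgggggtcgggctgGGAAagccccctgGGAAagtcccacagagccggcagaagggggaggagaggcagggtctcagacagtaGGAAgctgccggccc
Vegfa: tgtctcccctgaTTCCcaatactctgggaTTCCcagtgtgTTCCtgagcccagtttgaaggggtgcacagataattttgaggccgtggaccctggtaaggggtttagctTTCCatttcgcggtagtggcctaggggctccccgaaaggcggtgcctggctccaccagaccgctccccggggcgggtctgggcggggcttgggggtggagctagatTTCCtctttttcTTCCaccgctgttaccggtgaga
The Madcam1 stretch held 8 cores, a number reached by 1.45% of all RefSeq stretches of this length. Tie1 held 7 (reached by 3.82%), Vegfa 6 (8.69%), Flt1 4 (33.4%) and Tek 2 (76.8%), and 93.4% of stretches held at least 1. Another annotated Vegfa start, not printed, held 2 (76.8%). Of the members not printed, Kdr held 4 (33.4%), Eng 3 (54.7%) and Flt4 2 (76.8%). These are letter matches in a short window and describe no binding.

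PN1a 1 and PN1a 2, the PN1a samples titled with numbers instead of letters, stood apart from the other 9. Their mean intensity of the 18S ribosomal RNA controls was 160.2 and 222, against 5.70 to 19.9 elsewhere. Their ratio of the 5′ to the 3′ Gapdh control, which falls as RNA breaks down, was 1.21 and 1.13, against 0.192 to 0.801 elsewhere. Each sample title carries 1 of 3 numeric endings, here called E1, E2 and E3, and no source used here says what they mean. All 5 PN1a samples, PN1b 5 and PN1b 6 carry E1, PN1b 2 carries E2 and the other PN1b samples carry E3. Only E1 holds both lines. A fit with title ending as a fixed block therefore gives the same log2 fold changes as a fit within E1. Both rest on PN1b 5 and PN1b 6 alone for PN1b. The sources also do not say whether a sample is 1 mouse or a pool, so the errors and p-values given here cover only the variation from sample to sample.

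Madcam1 was the only member that passed the test between PN1a and PN1b, and it was lower in PN1a by 1 of its 2 probe sets. The intensity of the brighter one, 102680_g_at, was 4.47, 6.82, 4.79, 6.63 and 4.35 in PN1a 1 to PN1a 5. In PN1b it ran from 8.00 to 11.6 with a median of 9.16, so every PN1a sample lay below every PN1b sample. Mean log2 intensity was 3.22 ± 0.19 (SD, n = 6) for PN1b against 2.41 ± 0.32 (SD, n = 5) for PN1a. The log2 fold change was -0.82 (SE 0.19, 95% confidence interval -1.22 to -0.41, adjusted p = 0.0386 from limma), or 1.76-fold lower. Of all probe sets 2.49% were called, 0.869% higher and 1.62% lower, and 2.38% had every PN1a sample below every PN1b sample. The call ended without PN1a 1, PN1a 3, PN1a 5 or any PN1b sample other than PN1b 5 (adjusted p = 0.0526 to 0.0947 from limma). Without both PN1a 1 and PN1a 2 the log2 fold change was -0.85 (95% confidence interval -1.30 to -0.41). It was not called there (adjusted p = 0.0719 from limma). Within E1 the log2 fold change was -0.75 and was not called. Even this brighter probe set lay below the median of all, with a mean at percentile 45.1. The call also ended with 16 added to each value before log2.

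The other Madcam1 probe set, 102679_at, did not show this difference. Its intensities were 2.85, 3.41, 3.78, 2.89 and 4.23 in PN1a and 1.35 to 5.31 in PN1b, near the lowest value of all. Its log2 fold change was 0.31 (SE 0.32, adjusted p = 0.662 from limma), and the groups overlapped.

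Genes of lymph node vessels and stroma were set beside Madcam1. Of 8 measured, 1 was called lower in PN1a and none higher, where 1.84% of genes were called lower and 0.836% higher. Their median log2 fold change was -0.49 against -0.03 over all genes, and their summed intensity was 37.7 to 80.5 in PN1a against 115 to 292 in PN1b. Without Glycam1 the sums overlapped, at 36.6 to 58.1 in PN1a and 42.7 to 85.7 in PN1b. The gene called was Glycam1, a ligand of L-selectin made by high endothelial venules and also a milk protein. Its intensity was 1.06 and 1.61 in PN1a 1 and PN1a 2, 8.46, 22.3 and 22.8 in PN1a 3 to PN1a 5 and 59.3 to 206 in PN1b, a log2 fold change of -4.16 (adjusted p = 0.0109 from limma). Within E1 it was -3.58 and was not called (adjusted p = 0.632 from limma), nor was it with title ending as a fixed block. The B cell attracting chemokine Cxcl13 had -1.26 and lymphotoxin beta (Ltb) -1.09, and neither passed (adjusted p = 0.0701 and 0.0775 from limma). Summed T cell markers overlapped between PN1b (72.2 to 171) and PN1a (71.0 to 141). Without Thy1, which fibroblasts and other cells also make, they were 37.4 to 74.4 in PN1b and 37.7 to 50.5 in PN1a. The T cell coreceptor chain Cd8b1 had -0.98, with every PN1a sample below every PN1b sample, and the T cell receptor subunit Cd3e had -1.02, and neither passed (adjusted p = 0.0527 and 0.0822 from limma). Summed B cell markers overlapped too (71.6 to 130.5 in PN1b and 67.7 to 95.8 in PN1a). Among 7 B cell markers 1 was called, Pou2af1, a coactivator of B cells, at -1.86 (adjusted p = 1.28e-04 from limma), while its other probe set had -0.17. The part of lymph node tissue in the Madcam1 difference was not tested.

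**Figure D1:**
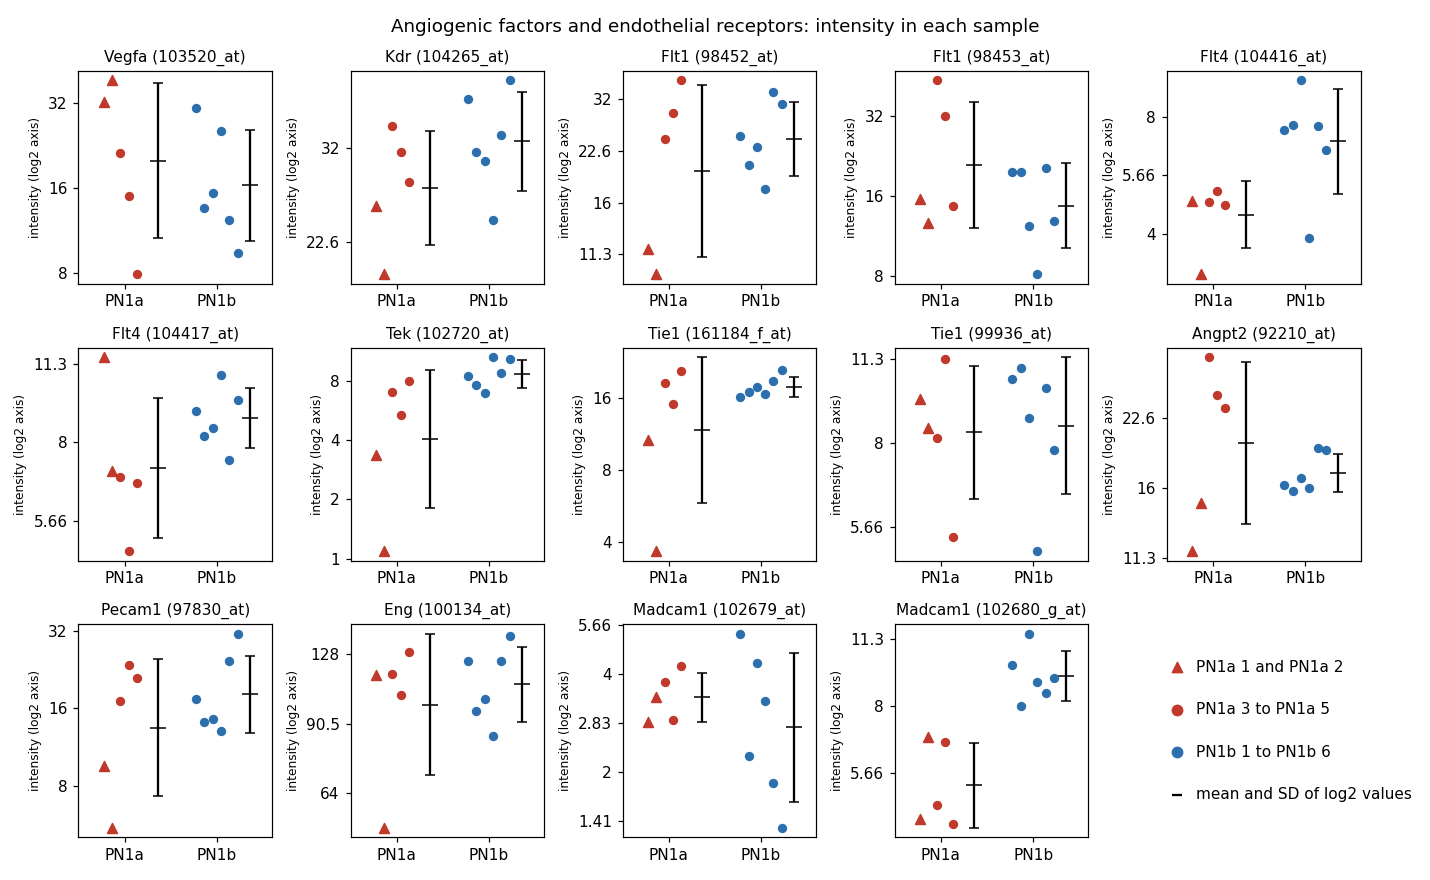
Intensity (y axis, log2 scale, 1 panel per probe set) of the 10 genes in each of the 11 samples, PN1a in red and PN1b in blue, with triangles for PN1a 1 and PN1a 2 and black bars for the mean and SD of log2 values. The groups separate in the panel of Madcam1 102680_g_at, and the triangles are the lowest points for Flt1 98452_at, Tek, Tie1 161184_f_at, Angpt2 and Pecam1 and the highest for Vegfa.

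Neither ligand among the members passed. Vegfa intensity was 32.2, 38.3, 21.3, 15.03 and 7.94 in PN1a 1 to PN1a 5 and 9.45 to 30.7 in PN1b with a median of 14.4, so PN1a held both the highest and the lowest value. Its log2 fold change was 0.29 (95% confidence interval -0.59 to 1.17, adjusted p = 0.754 from limma), and -0.26 without PN1a 1 and PN1a 2 (95% confidence interval -1.14 to 0.63). The lowest Vegfa values, in PN1a 5 and PN1b 6, fell in the 2 samples with the lowest Gapdh ratios (0.240 and 0.192), and the highest in those with the highest ratios. The part of RNA quality in the Vegfa values was not tested.

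Angpt2 intensity was 11.7 and 14.8 in PN1a 1 and PN1a 2 and 30.5, 25.3 and 23.8 in PN1a 3 to PN1a 5. PN1b lay between these, from 15.8 to 19.4. Its SD on the log2 scale was 0.14 in PN1b and 0.58 in PN1a. The log2 fold change was 0.22 (95% confidence interval -0.30 to 0.74, adjusted p = 0.682 from limma) over all samples. Without PN1a 1 and PN1a 2 it was 0.62 (95% confidence interval 0.23 to 1.01), which did not pass the adjustment (adjusted p = 0.125 from limma). The remaining 3 PN1a samples were above every PN1b sample, as they were for 3.96% of all probe sets, and Angpt2 was the only member of which this was true. They were below every PN1b sample for Madcam1 102680_g_at and Flt4 104417_at, and for 4.55% of all probe sets.

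No VEGF receptor passed. Kdr had intensities of 25.8, 20.1, 34.8, 31.6 and 28.2 in PN1a, against 24.6 to 41.1 in PN1b with a median of 32.6, and PN1a 2 was the lowest of all 11 samples. Its log2 fold change was -0.25 (95% confidence interval -0.67 to 0.18, adjusted p = 0.537 from limma), an interval with room for a difference in either direction. Over all samples the 2 probe sets of Flt1 pointed in opposite directions. Probe set 98452_at had 11.7 and 9.92 in PN1a 1 and PN1a 2, 24.4, 29.2 and 36.3 in PN1a 3 to PN1a 5 and 17.5 to 33.6 in PN1b. Its log2 fold change was -0.31 (95% confidence interval -1.03 to 0.41), and 0.27 without PN1a 1 and PN1a 2. Probe set 98453_at had 15.6, 12.6, 43.7, 32.2 and 14.7 in PN1a and 8.11 to 20.4 in PN1b, with 0.51 (95% confidence interval -0.25 to 1.28). Without PN1a 1 and PN1a 2 it had 0.90 (95% confidence interval 0.07 to 1.74, adjusted p = 0.273 from limma). Both probe sets were then above 0. PN1a 5 was the highest PN1a sample by the first of these and among the lower ones by the other. Which transcript forms each probe set covers was not examined.

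Flt4, the receptor for VEGF-C and VEGF-D, had a log2 fold change below 0 by both of its probe sets, and neither passed the adjustment. Intensity of 104416_at was 4.86, 3.16, 4.82, 5.17 and 4.76 in PN1a. In PN1b it was 3.92 in PN1b 4, which overlapped with PN1a, and 6.59 to 9.92 in the others. The log2 fold change was -0.62 (95% confidence interval -1.13 to -0.12, unadjusted p = 0.0198 and adjusted p = 0.171 from limma). Probe set 104417_at had -0.32 (95% confidence interval -0.78 to 0.15), with 11.6 in PN1a 1 as the highest value of all, 4.96 to 7.06 in the other PN1a samples and 7.41 to 10.8 in PN1b. Without PN1a 1 and PN1a 2 the values were -0.49 and -0.54 (adjusted p = 0.387 and 0.208 from limma).

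Tek had the log2 fold change farthest from 0 among the members and the widest interval. Its intensity was 3.36 and 1.09 in PN1a 1 and PN1a 2, 7.01, 5.35 and 8.00 in PN1a 3 to PN1a 5 and 6.96 to 10.6 in PN1b with a median of 8.64. The log2 fold change was -1.10 (SE 0.42, 95% confidence interval -1.998 to -0.20, unadjusted p = 0.0205 and adjusted p = 0.174 from limma), and -0.38 without PN1a 1 and PN1a 2 (95% confidence interval -0.84 to 0.09). PN1a 2 was almost at the lowest value of the table, so its distance from the rest is poorly known. Unadjusted p-values were below 0.05 for 3 of the 14 member probe sets, those of Madcam1, Flt4 and Tek, and for 18.9% of all probe sets.

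Macrophage markers were set beside Tek. Of 14 measured, 3 were called higher in PN1a (Tyrobp, Cd68 and C1qb) and none lower, and their log2 fold changes had a median of 1.22 and were all above 0. Their summed intensity was 329 to 933 in PN1b against 892 to 1486 in PN1a. Each call ended when some single samples were left out, and it held in 4, 3 and 2 of 11 cases for Tyrobp, Cd68 and C1qb. None of the 3 was called with title ending as a fixed or a random block, within E1 or without PN1a 1 and PN1a 2. Without those 2 samples the log2 fold changes of Tyrobp, Cd68 and C1qb were 1.57, 1.22 and 1.55. Over all samples they were 1.76, 1.11 and 2.20. The median of the 14 markers was 1.09 without those 2 samples and 0.76 within E1. Over all samples a second probe set had 0.04 for Cd68 and 0.10 for C1qb. The part of macrophages in the Tek signal was not tested.

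Tie1 was measured by 2 probe sets. The brighter, 161184_f_at, carries the mark of the maker for probe sets that may also detect related sequences. It had 10.6 and 3.66 in PN1a 1 and PN1a 2, 18.5, 15.03 and 20.8 in PN1a 3 to PN1a 5 and 16.2 to 21.0 in PN1b, with a log2 fold change of -0.60 (95% confidence interval -1.39 to 0.19, adjusted p = 0.404 from limma) and of 0.01 without PN1a 1 and PN1a 2. The other, 99936_at, ran from 5.43 to 11.3 in PN1a and from 5.13 to 10.9 in PN1b, with -0.04 (95% confidence interval -0.56 to 0.48). It did not show low values in PN1a 1 and PN1a 2, which read 9.58 and 8.51.

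Pecam1 had intensities of 9.58 and 5.50 in PN1a 1 and PN1a 2, 17.1, 23.6 and 21.0 in PN1a 3 to PN1a 5 and 13.1 to 31.1 in PN1b. Its log2 fold change was -0.43 (95% confidence interval -1.23 to 0.37, adjusted p = 0.580 from limma) over all samples and 0.17 without PN1a 1 and PN1a 2. Within PN1b the E1 samples PN1b 5 and PN1b 6 were highest, at 24.4 and 31.1, and within E1 the log2 fold change was -1.03. Eng, a co-receptor for ligands of the TGF-beta family, had 115, 53.8, 116, 105 and 129.8 in PN1a and 85.0 to 140.1 in PN1b, with -0.15 (95% confidence interval -0.66 to 0.37). PN1a 2 was the one low sample for Eng.

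**Figure D2:**
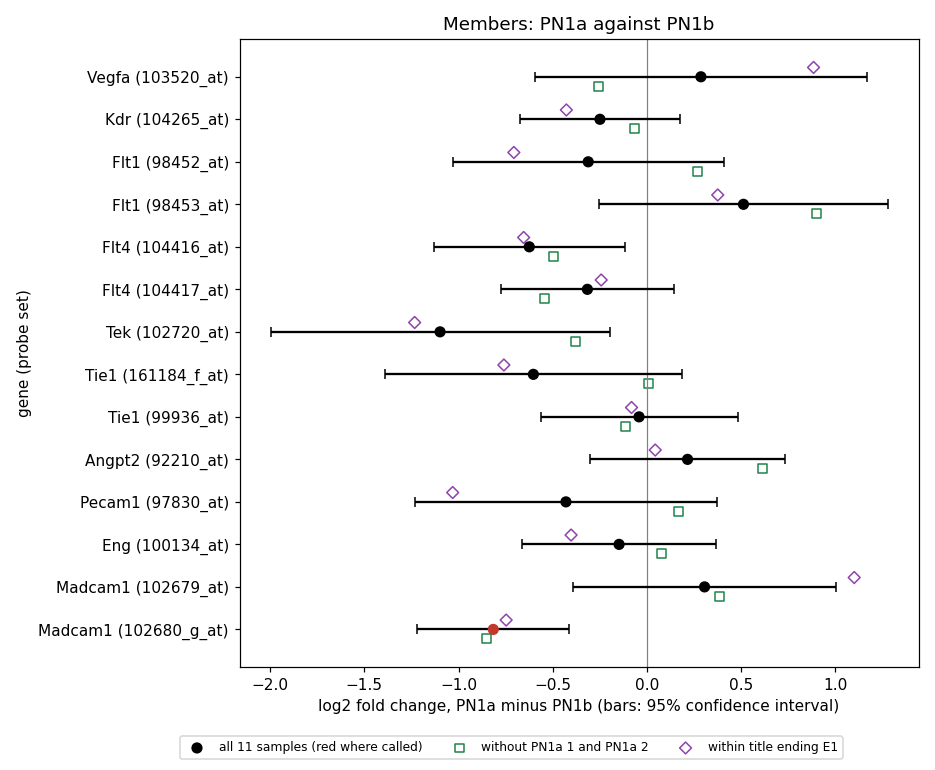
Log2 fold change, PN1a minus PN1b (x axis), of the 14 probe sets (y axis), with points and 95% confidence intervals for all 11 samples, green squares without PN1a 1 and PN1a 2 and purple diamonds within title ending E1. The interval of the called Madcam1 probe set (red) lies below 0, as do those of Tek and Flt4 104416_at, which did not pass the adjustment, and the squares of Flt1 98452_at, Pecam1 and Eng lie above 0.

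Over the 14 member probe sets, 10 log2 fold changes were below 0 and 4 above, with a median of -0.28 against -0.01 over all probe sets. Without PN1a 1 and PN1a 2, 7 were below 0 and the median was -0.03, as it was over all probe sets (-0.03). No member was called there, where 1.34% of all probe sets were. Within E1, which holds PN1a 1 and PN1a 2 and only 2 PN1b samples, 10 were below 0 with a median of -0.41, and no member was called, where 0.145% of all probe sets were.

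In 5 of the 14 probe sets, those of Flt1 (98452_at), Tek, Tie1 (161184_f_at), Angpt2 and Pecam1, PN1a 1 and PN1a 2 lay below all the other 9 samples, which held for 10.1% of all probe sets. In Vegfa alone both lay above all the others, which held for 8.84%. The mean log2 intensity of PN1a 1 and PN1a 2 minus that of PN1a 3 to PN1a 5 was -1.80 for Tek, -1.53 for Tie1 161184_f_at, -1.49 for Pecam1, -1.46 for Flt1 98452_at, -1.0 for Angpt2, -0.97 for Flt1 98453_at, -0.56 for Eng and -0.46 for Kdr. It was -0.33 and 0.57 for Flt4 104416_at and 104417_at, -0.20 and 0.0950 for Madcam1 102679_at and 102680_g_at and 0.185 for Tie1 99936_at. For Vegfa it was 1.36, and the median over all probe sets was 0.03. These are values of 2 samples against 3 of the same group, with no test.

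Other endothelial genes were low in these samples too. Of 43 pan-endothelial markers 31 were measured, and PN1a 1 and PN1a 2 were below all other samples in 14 of them and above in 1, Acvrl1. Von Willebrand factor (Vwf), a clotting protein stored in endothelium, read 2.53 and 1.58 against 31.6 to 51.6 in the other 9 by its brighter probe set. P-selectin (Selp), which endothelium shows to leukocytes, read 1.84 and 1.32 against 163 to 304, and E-selectin (Sele) 1.47 and 1.18 against 15.5 to 52.0. Without Notch4, the summed intensity of the remaining 30 markers was 535 in PN1a 1, 336 in PN1a 2, 835 to 963 in PN1a 3 to PN1a 5 and 774 to 1128 in PN1b. Markers of other cells also differed, not all in the same direction. The mean log2 difference from the average of all samples for 10 luminal epithelial markers was -1.27 and -0.25 in PN1a 1 and PN1a 2 and 0.50 to 0.61 in PN1a 3 to PN1a 5, and for 9 adipocyte markers it was -0.39 and -0.68 against -0.10 to 0.34. For 14 macrophage markers it was 1.44 and 0.52 against 0.08 to 0.79. For 7 skeletal muscle markers it was 0.32 and -0.11 against -0.14 to 0.19. The part of RNA quality and tissue makeup in the low endothelial values was not tested.

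**Figure D3:**
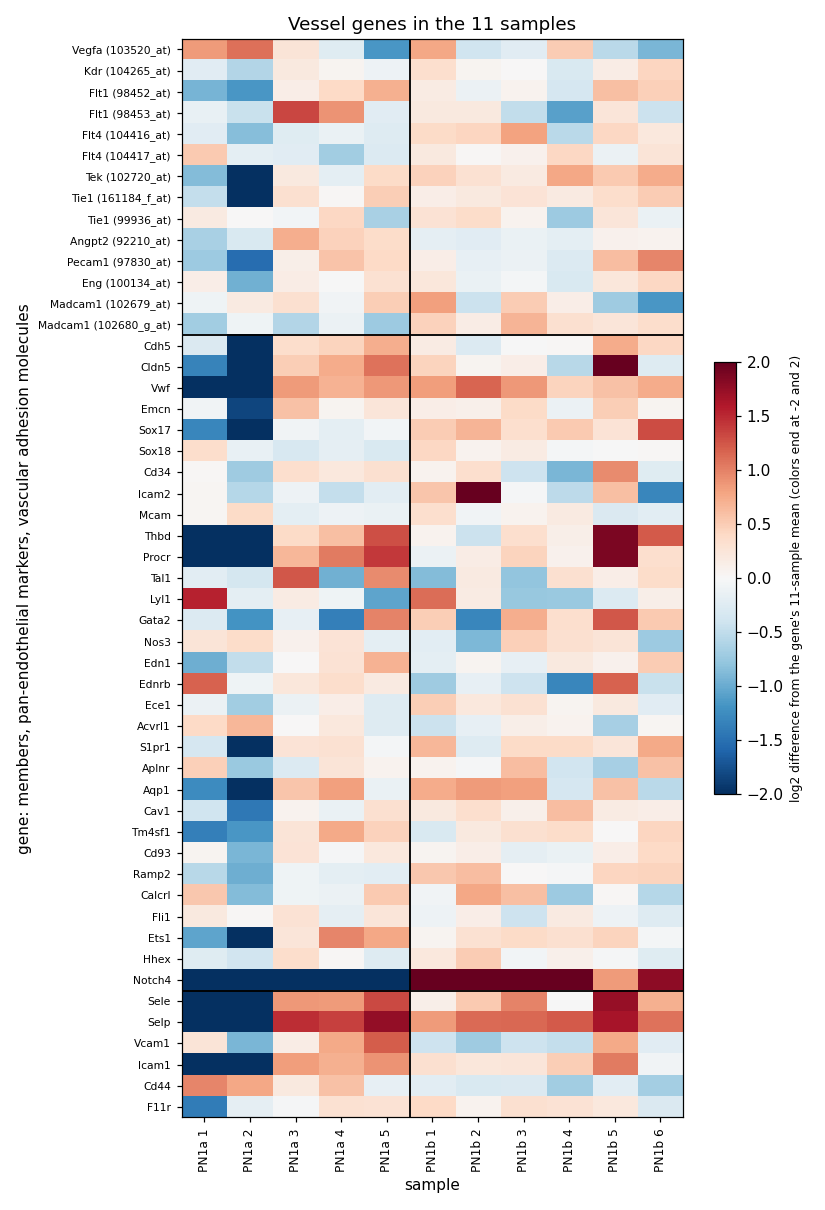
Log2 difference of each gene from its own mean over the 11 samples (color, blue below and red above, ending at -2 and 2) for the 14 member probe sets, 31 pan-endothelial markers and 6 vascular adhesion molecules (rows) in each sample (columns). The columns of PN1a 1 and PN1a 2 are blue for Tek, Tie1 161184_f_at, Pecam1, Vwf, Sele and Selp and red for Vegfa, and the row of Notch4 is blue in all PN1a samples and red in all PN1b samples.

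Between PN1a and PN1b, 1 of the 31 pan-endothelial markers was called. Notch4, a Notch receptor of endothelium, was lower in PN1a at -5.04 (adjusted p = 1.38e-05 from limma), with intensities of 127 to 541 in PN1b against 5.10 to 17.3 in PN1a. Its probe set 93928_f_at also carries the mark for related sequences, and the other Notch4 probe set had 0.23, so the level of the gene is uncertain. The median log2 fold change of the 31 was -0.38, with 24 below 0, and 0.08 without PN1a 1 and PN1a 2. Sox17, a transcription factor of arterial endothelium, had -1.33, and Ramp2, a partner of the adrenomedullin receptor, had -0.74. For both, every PN1a sample lay below every PN1b sample, as for 2.38% of all probe sets, but neither passed (adjusted p = 0.0641 and 0.0810 from limma). Without PN1a 1 and PN1a 2, Sox17 had -0.71 and Ramp2 -0.49 (adjusted p = 0.178 and 0.263 from limma). Vwf by its brighter probe set, Sele and Selp had -1.70, -1.50 and -2.61 over all samples and 0.03, 0.33 and 0.35 without PN1a 1 and PN1a 2. The other Vwf probe set had 0.53 over all samples.

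**Figure D4:**
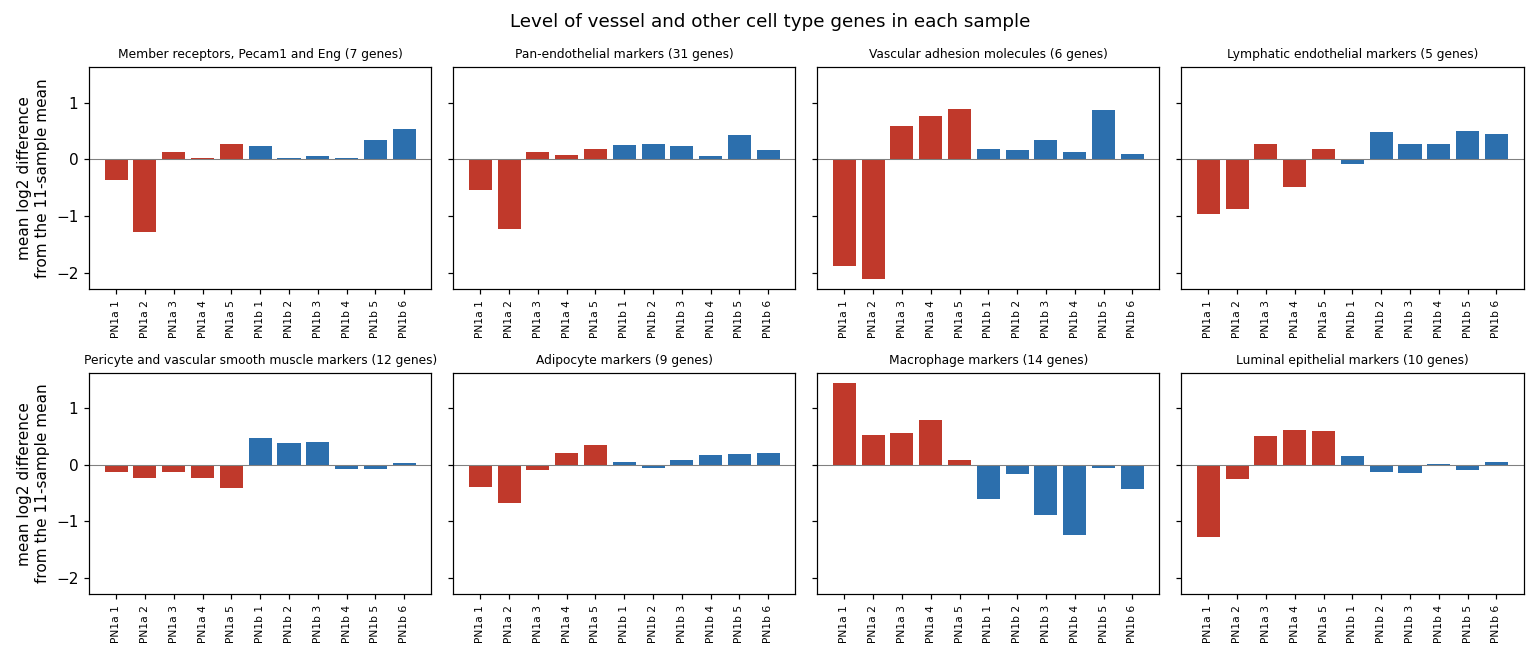
Mean log2 difference from the 11-sample mean (y axis) of 8 groups of genes in each sample (x axis, 1 bar per sample, PN1a red and PN1b blue). Member receptors with Pecam1 and Eng, pan-endothelial markers and vascular adhesion molecules are lowest in PN1a 1 and PN1a 2. The same holds for lymphatic, luminal and adipocyte markers. Macrophage markers are above 0 in all 5 PN1a samples and below 0 in all 6 PN1b samples.

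Among the ligands and partners of the members, none of 5 VEGF family ligands and co-receptors was called (median -0.23), nor any of 4 angiopoietin and Tie partners (median -0.38). VEGF-D (Vegfd), a ligand of VEGFR3, had -1.56 (SE 0.51, adjusted p = 0.121 from limma). Its intensity was 4.89 to 11.1 in PN1b, 7.11 and 8.94 in PN1a 4 and PN1a 5, and at most 2.03 in the other PN1a samples. VEGF-C (Vegfc) had -0.37 (adjusted p = 0.649 from limma). Angpt1, the activating ligand of TIE2, had 0.35, and Ptprb, an endothelial phosphatase that acts on TIE2, had -0.56 (adjusted p = 0.657 and 0.397 from limma).

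Of 5 lymphatic endothelial markers 1 was called. Reelin (Reln), which other cells make too, was lower in PN1a at -2.94 (adjusted p = 0.0365 from limma), with 57.3 to 89.9 in PN1b against 1.39 to 35.8 in PN1a, and its other probe set had -0.19. The call ended without PN1a 2, PN1a 4 or any PN1b sample other than PN1b 5 (adjusted p = 0.0527 to 0.0824 from limma). The lymphatic transcription factor Foxc2 had -1.04 (adjusted p = 0.0662 from limma). No gene was called among 12 pericyte and vascular smooth muscle markers (median -0.34), 20 hypoxia genes (-0.35), 11 angiogenesis inhibitors (0.04), 10 other angiogenic growth factors, Vegfd again among them (-0.33), or 6 vascular adhesion molecules (-0.60). The hyaluronan receptor Cd44, in the adhesion list, had 0.87 by its brightest probe set (adjusted p = 0.0561 from limma). Its other probe sets had 0.20 and -0.38. Hif1a, the oxygen-regulated factor that drives Vegfa, had -1.21 and the oxidase Ero1a -0.87 (adjusted p = 0.106 and 0.0516 from limma). Timp3, an inhibitor that blocks VEGFR2, had -0.85, and the growth factor Fgf1 had -1.63 (adjusted p = 0.106 and 0.0643 from limma). Within E1 these differences were -0.52 for Hif1a, -0.38 for Ero1a and -0.96 for both Timp3 and Fgf1, and the median of the hypoxia genes was -0.11. Hif1a intensity was 155 and 133 in PN1b 5 and PN1b 6, 241 to 352 in the other PN1b samples and 35.5 to 164 in PN1a. Among the other cell types, the basal regulator Trp63 (-1.55) and the adipocyte lipase Lpl (-1.81) were called lower, each the only call in its list (adjusted p = 0.0262 and 0.0415 from limma). The medians were -0.39 for 7 basal, 0.06 for 9 adipocyte, -0.18 for 10 luminal, -0.31 for 10 T cell, -0.43 for 7 B cell and -0.01 for 7 skeletal muscle markers, and no luminal, T cell or muscle marker was called by its brightest probe set. The luminal keratin Krt19 had 2.63 by that probe set (adjusted p = 0.0808 from limma) and 3.74 by its other one, which was called higher in PN1a. Without PN1a 1 and PN1a 2, Krt19 (4.09), the mucin Muc1 (1.99) and the basal keratin Krt17 (1.99) were called higher (adjusted p = 7.61e-04, 0.00211 and 0.00274 from limma). Over all samples Krt17 had 1.21 by this probe set and -0.02 and 2.08 by its others. Reln, Trp63 and Lpl were not called with title ending as a fixed or a random block or within E1. Within E1, with PN1b 5 and PN1b 6 as the only PN1b samples, their log2 fold changes were -3.12, -1.235 and -1.76.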

How the data were processed

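Arrays of 5 PN1a and 6 PN1b samples were used. The authors computed and quantile normalized the values in dChip (PM-MM model) and deposited a linear intensity for each probe set. The sources used here do not give the dChip version. Log2 was taken with no offset for 12422 probe sets, without the 66 controls of the maker. Median intensity per sample was 8.57 to 9.51. The number of arrays limits the precision. Gene names follow the platform annotation, with symbols updated.

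PN1a minus PN1b was tested with limma 3.58.1 (R 4.3.3; lmFit and eBayes, two-sided, without covariates), with Benjamini-Hochberg adjustment over all probe sets. The steps were tested on simulated data. Members and 17 gene lists (175 genes measured, each by its probe set with the highest mean) were chosen with earlier results of these data known. Every member and, from each list, called genes and up to 3 others with the smallest adjusted p could be named. Acvrl1 and Thy1 fall outside this rule and were chosen after their values were seen. The supplementary table of the study holds each deposited value plus 1, for a reason not given in the sources used here, and for log2(value + 1) the difference of Tek was -0.87. Alternatives covered the test, title ending as a block, left-out samples, normalization, offsets and filters. RefSeq promoters (GRCm38.p6) covered 8 of 10 members. Plots were made in matplotlib 3.10.9 under Python 3.11.15.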

Additional observations from a re-analysis of the deposited data

Results flagged for a closer look

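For Eng, PN1a 2 lay far from the rest of its group, with an intensity of 53.8 against 105 to 129.8, a gap that made up 0.756 of the log2 range of the group. For Flt4 probe set 104416_at the same sample, at 3.16 against 4.76 to 5.17, had a gap of 0.831 of the range. These were 2 of 28 combinations of probe set and group, and chance gives about 1 in 20.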

How the results depend on the processing

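Over all samples 1 member was called. The number was 0 with title ending as a fixed or a random block, within E1, without both PN1a 1 and PN1a 2, without both PN1a 5 and PN1b 6, for log2(value + 16), for probe sets with a mean above the median of all (where this Madcam1 probe set was not tested) and for a fold change of at least 2, and 0 to 1 with 1 sample left out. Madcam1 102680_g_at stayed below 0 in the 25 alternatives that gave it a value (-0.91 to -0.25) and was called in 10. These 25 count the mean of both Madcam1 probe sets, which is not a value of this probe set alone. Of 354 alternative values of members, 325 kept their direction and side of the threshold, 15 of Madcam1 were no longer called and 14 changed sign. Without both PN1a 1 and PN1a 2 the sign changed for Vegfa (-0.26), Flt1 98452_at (0.27), Tie1 161184_f_at (0.00833), Pecam1 (0.17), Eng (0.0783), Vwf (0.03), Sele (0.33), Selp (0.35) and Vegfc (0.14). It also changed for Eng without PN1a 2 (0.075, against -0.24 at the lowest with 1 sample left out) and for Flt1 as the mean of its probe sets (0.10). Tie1 99936_at became 0.00309 after repeated quantile normalization, 0.0183 with samples centred, 0.086 without both PN1a 5 and PN1b 6, and ranged from -0.19 to 0.115 with 1 sample left out, above 0 without PN1a 5, PN1b 1, PN1b 2 or PN1b 5.

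Over all probe sets 108 and 201 were higher and lower. These became 271 and 442 for the methods' t-test at p under 0.01, 50 and 95 for it after Benjamini-Hochberg, 12 and 19 with the fixed block, 58 and 104 with the random block and 6 and 12 within E1. For log2(value + 16) 65 were higher, without both PN1a 1 and PN1a 2 82 were lower, and above the median 303 were lower. With 1 sample left out 44 to 182 were higher and 79 to 377 lower, both most without PN1b 5. Among list genes 3 and 6 were higher and lower. These became 8 and 17 for the methods' t-test, 0 and 2 after Benjamini-Hochberg, 0 and 2 with the fixed block and within E1, 0 and 3 with the random block, 7 and 10 for log2(value + 1), chosen after seeing the data, and 8 and 12 above the median. With 1 sample left out 0 to 6 were higher and 3 to 11 lower. The higher count was 5 for eBayes with trend and robust, 5 for repeated quantile normalization, 6 with samples centred and 7 without both PN1a 5 and PN1b 6. The causes were not tested. No paired analysis was run, because the sources used here describe no pairing of PN1a with PN1b samples. Dim probe sets such as Madcam1 102679_at lie near the lowest value of the table, where differences are poorly measured.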

Other observations

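Profiles most like those of Madcam1, Vegfa and Kdr were sought among 5624 probe sets of a single gene with a mean above the median of all, by the root mean square difference of log2 values over the 11 samples after each profile was centred on its mean. Nearest to Madcam1 102680_g_at were Ndufb9 (0.18), Ei24 (0.18), Rabggtb (0.20), Pdzk1ip1 (0.21) and Tmem176b (0.22), where a flat profile would lie at 0.47. Nearest to Vegfa were Thrap3 (0.33), Clk2 (0.34), Slc29a1 (0.36), Cic (0.37) and Antkmt (0.38), where a flat profile would lie at 0.72. Nearest to Kdr were Mef2d (0.15), Esyt1 (0.17), Rasa3 (0.18), S100a3 (0.18) and Cmtr1 (0.18), against 0.28 for a flat profile. No other member was among them, though only 8 of the 14 member probe sets had a mean high enough to be searched.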
